A study of Mus musculus with 12 samples.

Results

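The genes examined here are 40 genes of G2 and mitosis, chosen by symbol from a list of known roles in cell division. Earlier results of these data were known when they were chosen. All 40 were found among the 41325 genes of the tables, all 40 had counts and all 40 passed the filter on low counts in each comparison. In G2 a cell with replicated DNA builds up the cyclin and kinase activity that starts mitosis. In mitosis the chromosomes condense, attach through kinetochores to the spindle, wait for the spindle checkpoint, separate and are divided between daughter cells at cytokinesis. Many of these genes are transcribed mainly in G2 and M through the MuvB complex with MYBL2 and FOXM1, and many of their products are then destroyed at the end of mitosis by the anaphase-promoting complex. In microglia, the macrophages of the brain, they are used as markers of dividing cells.

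The cells were IMG, an immortalised mouse microglial line that divides in culture, of the wild-type C57Bl6/J strain, and every group came from the same passage. They were kept for 8 h with scramble, the control, or with amyloid beta, the peptide of Alzheimer plaques, in 1 of 2 preparations that the labels name oAb and fAb. The series' design text glosses oAb as fibrillar and fAb as oligomeric, the reverse of what the abbreviations would stand for, so only the abbreviations are used here. Each group held 4 libraries, 12 in all, and separate cultures are not stated, so a p-value measures the spread between libraries, which may be technical. Being 1 immortalised line, the cells stand for microglia only in part. All 12 microglia and macrophage markers were at 1 CPM (normalised counts, scaled to library size) or more on average in each group, with Lyz2, a lysozyme gene, highest at 5822 CPM in scramble. Of these 12, 4 were called lower and 2 higher in oAb, and 5 lower and 2 higher in fAb, by the test used below. Over all genes tested, 27.0% were called lower and 25.2% higher in oAb, and 28.8% and 27.6% in fAb. Fcgr3 went from 113.4 CPM in scramble to 17.0 in oAb and 16.8 in fAb, while Adgre1 and Ptprc rose. Of the neuronal markers, 6 of 8 were at 0 in scramble, and no astrocyte or fibroblast marker reached 1 CPM there. A few markers of other cell types moved with treatment. The summed neuronal markers were at 0.941 to 3.56 CPM across controls and 10.1 to 12.9 across treated libraries, mainly Map2, with Snap25 and Syt1 at 0 in every group. The endothelial sum was 1.59 to 3.66 CPM in controls and 17.4 to 23.9 in treated libraries, mainly Flt1, with Cldn5 and Tek at 0, and the fibroblast sum at most 0.157 CPM in controls and 2.80 to 4.53 in treated ones, with Pdgfra at 0. The oligodendrocyte sum was 125.1 to 153.0 CPM in controls and 74.6 to 84.7 in treated libraries, mainly Mbp, with Mog and Sox10 at 0.

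Totals ran from 13638721 to 18124419 counts per library. The libraries fell into 2 sets by how they divide counts between Timm23 and its near-copy Gm10273: scramble 2, 3 and 4 with oAb 1 and 2 (Timm23 set), against scramble 1, oAb 3 and 4 and all fAb libraries (Gm10273 set). No label explains the sets. Ribosomal protein genes took 10.6% of scramble library 3, 6.37% to 6.73% of the other controls and 4.73% to 5.30% of each treated library. Mitochondrial genes took 2.73% to 3.37% of each treated library, against 4.18% to 4.94% of each control. The members' counts and medians are given with and without scramble 3 and within the sets, while the other gene lists and the ratios of gene pairs are given over all libraries only.

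The mitotic genes were lower after both preparations. Together the 40 genes held 0.583%, 0.532%, 0.390% and 0.507% of all counts in scramble libraries 1 to 4. They held 0.178% to 0.191% in the oAb libraries and 0.185% to 0.203% in the fAb libraries, so every treated library lay below every control, scramble 3 included. Of the 40 genes, 38 were lower in oAb than in scramble by edgeR's quasi-likelihood test (adjusted p under 0.05 over all genes tested) and 0 were higher. Over all 11033 genes tested, 27.0% were called lower and 25.2% higher. In fAb against scramble 38 were lower and 0 higher, where 28.8% of 11074 genes were called lower and 27.6% higher. The members were chosen with earlier results of these data known, so setting them beside all genes is a description and not an independent test. At an unadjusted p under 0.05, also 0 members were higher in either comparison. At the adjusted threshold the members not called lower were Aurka and Bub3 in both comparisons. The 2 comparisons share their 4 controls, so each one's values are given side by side and their likeness is not counted as a second observation.

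The median log2 fold change of the 40 genes was -1.22 in oAb, or 42.8% of the control level, and -1.19 in fAb, or 43.9%. The median over all genes tested was -0.07 and -0.04. At least 2-fold falls that passed the test were found in 32 members in oAb, where 11.0% of all genes met that rule, and in 24 in fAb, where 12.0% did. In 39 members every oAb library lay below every control, with Aurka the exception, against 25.0% of all genes. In fAb this held for 35 members, against 28.0% of all genes, and the exceptions were Aurka, Bub1, Kif20b, Ect2 and Anln. Except for Aurka, these overlaps came through scramble library 3, which was the lowest control for each of them. In bulk RNA a smaller share of cells in G2 or mitosis and less RNA of these genes per cell cannot be told apart. The mitochondrial and ribosomal protein shares, both lower in every treated library than in every control, moved with the fall, and their part in the result was not tested.

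Scaling moved the level that all genes were set against. With upper quartile scaling the median of all genes became -0.24 in oAb and -0.23 in fAb, and that of the members -1.39 and -1.38. All 40 members were then called lower in both comparisons. The calls over all genes became 36.4% lower and 19.3% higher in oAb, and 39.4% lower and 20.5% higher in fAb. Relative to the median of all genes the members stood at -1.16 in oAb and -1.15 in fAb under both scalings. A change of scaling shifts all genes by nearly the same amount, so this likeness was fixed in advance and tests nothing.

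The fall was seen within each library set. Within the Timm23 set (3 controls and 2 oAb libraries) 34 members were lower in oAb with a median of -1.16, and Bub1, Kif20b, Ect2 and Anln lost their calls. Within the Gm10273 set, 38 were lower in oAb with a median of -1.38 and 39 in fAb with a median of -1.32, but that set holds a single control, scramble 1, which is assumed to vary like the treated libraries. With the set as a term, 39 members were lower in oAb. No fAb library is in the Timm23 set, so in fAb a set term (38 members lower) leaves the comparison to scramble 1 alone and adds nothing to the fit within the Gm10273 set.

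**Figure D1:**
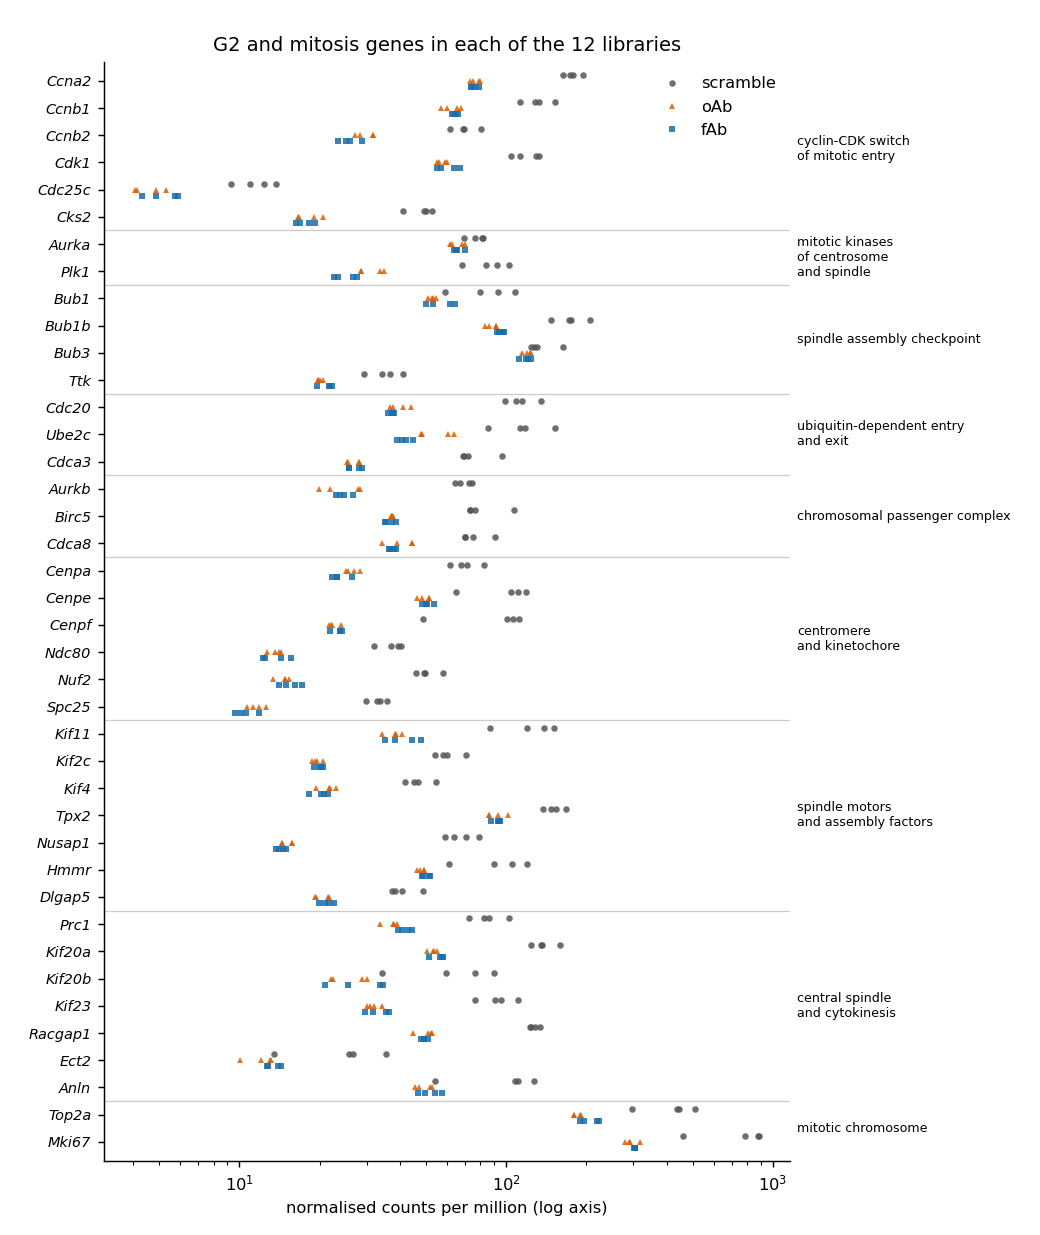
Normalised CPM (counts scaled to library size) on a log axis for the 40 genes, grouped by role, with 1 point per library (circles scramble, triangles oAb, squares fAb). All oAb points lie to the left of all controls in 39 rows and all fAb points in 35. Those of Bub3, among these rows, lie only just left of its lowest control, while those of Aurka overlap the controls.

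At the entry to mitosis, all 6 genes of the cyclin and CDK switch fell in both comparisons, with medians of -1.22 and -1.15. Ccna2 (chromosome 3, 36564865 to 36572150, mm10), which encodes cyclin A2 of S phase and G2, was at 194.5, 178.3, 163.5 and 173.6 normalised CPM in scramble libraries 1 to 4. It was at 79.3, 73.3, 79.8 and 75.4 in oAb and 74.2, 79.2, 76.5 and 73.6 in fAb. The lowest control was above the highest treated library by a wide margin, and the log2 fold changes were -1.20 ± 0.09 (SE, edgeR adjusted p = 3.08e-06) and -1.19 ± 0.08 (2.25e-06). Ccnb1 and Ccnb2 encode the B-type cyclins that activate CDK1 for mitosis. Ccnb1 changed by -1.07 ± 0.11 and -0.99 ± 0.10 and Ccnb2 by -1.24 ± 0.11 and -1.40 ± 0.11, in oAb and fAb in turn. Cdk1, the mitotic kinase itself, had the smallest falls of the 6, at -1.05 ± 0.10 and -0.94 ± 0.11. Cks2, a small CDK-binding subunit, had the largest, at -1.40 ± 0.12 and -1.42 ± 0.11. Cdc25c, a phosphatase that removes the inhibitory phosphates of CDK1, had the lowest CPM of the 40, at 9.34 to 13.8 CPM in scramble and 4.07 to 5.90 in the treated libraries. Its 2 changes were -1.33 ± 0.16 and -1.12 ± 0.16. The counts of Cks2 and Ccnb1 are uncertain, since 29.7% and 23.4% of their 50-base words also lie in other genes.

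The 2 kinases of centrosome and spindle changed by unlike amounts, and only Plk1 passed the threshold. Plk1 (chromosome 7, 122159439 to 122169873), the polo-like kinase of centrosome maturation and mitotic progression, was at 68.6, 84.2, 102.3 and 92.5 CPM in scramble. It was at 34.7, 33.7, 28.5 and 28.6 in oAb and 23.4, 22.6, 26.6 and 27.5 in fAb. All treated libraries were below all controls, with changes of -1.47 ± 0.14 (edgeR adjusted p = 2.14e-05) and -1.76 ± 0.14 (6.75e-06). Aurka (chromosome 2, 172356190 to 172370535), the Aurora kinase of spindle poles, was at 80.9, 69.6, 82.1 and 76.4 CPM in scramble, at 61.5, 62.9, 70.2 and 68.5 in oAb and at 63.9, 65.2, 65.0 and 70.04 in fAb. Scramble library 2 lay within the treated range, so the groups overlapped. The changes were -0.23 ± 0.09 (edgeR adjusted p = 0.0637) and -0.19 ± 0.08 (adjusted p = 0.085), which missed the threshold. In per-length TPM, Aurka had 12 members above it in scramble, at 92.2 ± 11.7 (SD, n = 4), and it was at 69.1 ± 3.26 in oAb and 73.6 ± 2.70 in fAb, where the only member above it was Mki67, and in oAb Mki67 and, by less than their spread, Cks2. Over its alternative settings Aurka stayed below 0 and passed the threshold in 4 settings in each comparison, listed in the closing section.

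Of the 4 spindle checkpoint genes, which hold anaphase until every chromosome is attached, 3 fell. Bub1b, which encodes the checkpoint protein BubR1, was at 206.0, 175.0, 146.8 and 172.2 CPM in scramble, at 83.2 to 92.0 in oAb and at 92.5 to 98.6 in fAb. The control and treated libraries did not overlap, and the changes were -0.98 ± 0.11 and -0.83 ± 0.10. Ttk, the kinase MPS1 that starts the checkpoint signal, changed by -0.82 ± 0.12 and -0.69 ± 0.11. Bub1, the kinetochore kinase, was at 108.2, 93.2, 58.8 and 79.5 CPM in scramble, at 51.2 to 54.5 in oAb and at 49.9 to 64.3 in fAb. In oAb it changed by -0.68 ± 0.17 (edgeR adjusted p = 0.00753) with no overlap, while in fAb 2 libraries lay above scramble 3. The fAb change of Bub1, -0.53 ± 0.18 (adjusted p = 0.0303), had the largest adjusted p among the called members, and the call was lost on leaving out any of 5 libraries: scramble 1 or 2, or fAb 1, 3 or 4 (adjusted p 0.0532 to 0.0884).

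Bub3 (chromosome 7, 131560222 to 131571895), a propeller-shaped adaptor that carries BUB1 and BubR1 to kinetochores, was at 131.1, 124.4, 162.9 and 126.9 CPM in scramble. It was at 115.1, 123.8, 119.9 and 123.4 in oAb and at 120.4, 111.6, 124.2 and 118.8 in fAb. Scramble 3 was far above the other controls, and scramble 2 lay only just above the highest treated libraries. The changes of -0.17 ± 0.10 (edgeR adjusted p = 0.186) and -0.16 ± 0.10 (adjusted p = 0.21) missed the threshold, with 95% intervals reaching from -0.41 to 0.06 and from -0.40 to 0.07. Without scramble 3 they were smaller still, at -0.08 and -0.06. Bub3 passed the threshold only with upper quartile scaling (-0.35, adjusted p = 0.0208, and -0.35, adjusted p = 0.0184).

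The 3 genes of ubiquitin-dependent entry and exit fell. Cdc20 (chromosome 4, 118432901 to 118437352), the activator of the anaphase-promoting complex on which the checkpoint acts, was at 98.9, 108.7, 135.4 and 115.1 CPM in scramble, at 36.7 to 44.2 in oAb and at 36.1 to 37.8 in fAb. All treated libraries were far below all controls, with changes of -1.52 ± 0.12 and -1.58 ± 0.11. Ube2c, the ubiquitin-conjugating enzyme of that complex, changed by -1.08 ± 0.18 and -1.46 ± 0.17, and Cdca3, which helps to remove the inhibitory kinase WEE1, by -1.51 ± 0.13 and -1.46 ± 0.13. The exons of Ube2c overlap Tnnc2 on the other strand over 22.8% of their length.

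The chromosomal passenger complex corrects faulty attachments and later works at the midzone, and its 3 members here fell. Birc5, which encodes survivin, was at 76.4, 73.3, 106.9 and 73.1 CPM in scramble, at 37.1 to 37.8 in oAb and at 35.2 to 38.8 in fAb. The spread among the treated libraries was small beside the gap to the controls, and scramble 3 stood above the other controls. The changes were -1.13 ± 0.13 and -1.13 ± 0.14. Aurkb, the complex's kinase, changed by -1.51 ± 0.14 and -1.46 ± 0.10, and Cdca8, encoding borealin, by -0.92 ± 0.13 and -0.99 ± 0.11.

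All 6 centromere and kinetochore genes fell, with medians of -1.47 in oAb and -1.57 in fAb, the lowest of the 9 roles in fAb. Cenpf (chromosome 1, 189640606 to 189688086), a large outer kinetochore protein that accumulates in G2, was at 111.3, 100.5, 48.9 and 106.4 CPM in scramble. It was at 24.0, 21.7, 22.0 and 22.2 in oAb and at 23.8, 24.3, 23.7 and 21.9 in fAb. The treated libraries lay within a narrow band, and even scramble 3, far under the other controls, was above all of them. The changes were -2.03 ± 0.24 (edgeR adjusted p = 7.96e-05) and -1.93 ± 0.23 (0.000104), or -2.24 and -2.13 without scramble 3. Cenpe, a kinetochore motor that moves chromosomes to the spindle equator, was at 119.0, 110.7, 65.0 and 104.7 CPM in scramble and at 46.3 to 53.4 in the treated libraries. Its changes, -1.01 ± 0.17 and -0.94 ± 0.17, were the smallest of the group.

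The NDC80 complex is the kinetochore's grip on microtubules, and 3 of its subunits were on the list. Nuf2 (chromosome 1, 169497934 to 169531464) was at 57.8, 49.4, 49.8 and 45.8 CPM in scramble, at 14.9, 14.8, 13.4 and 15.3 in oAb and at 17.2, 16.1, 14.03 and 15.0 in fAb. No treated library came near the lowest control, and the changes were -1.79 ± 0.11 (edgeR adjusted p = 7.46e-07) and -1.66 ± 0.11 (1.68e-06). Ndc80 changed by -1.44 ± 0.11 and -1.40 ± 0.12 and Spc25 by -1.50 ± 0.10 and -1.60 ± 0.11. Cenpa, the histone H3 variant that marks the centromere, changed by -1.42 ± 0.11 and -1.54 ± 0.11.

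The 7 spindle motors and assembly factors all fell, by between -2.17 and -0.73 in oAb and between -2.21 and -0.68 in fAb. Nusap1 (chromosome 2, 119618298 to 119651244), a microtubule-bundling protein of the spindle, had the largest fall of the 40 genes in both comparisons. It was at 78.9, 70.8, 59.0 and 63.8 CPM in scramble, at 14.5, 14.4, 15.8 and 15.7 in oAb and at 14.6, 14.9, 13.8 and 14.1 in fAb. The treated libraries were at 22.2% and 21.6% of the controls with no overlap, and the changes were -2.17 ± 0.12 (edgeR adjusted p = 3.69e-07) and -2.21 ± 0.11 (2.43e-07). Tpx2, which activates Aurora A on spindle microtubules, had the smallest fall of the 7. It was at 168.1, 147.9, 137.1 and 154.1 CPM in scramble, at 85.9 to 101.3 in oAb and at 87.8 to 94.96 in fAb, with changes of -0.73 ± 0.10 and -0.68 ± 0.08. The 3 kinesins also fell. Kif11, which pushes spindle poles apart, changed by -1.71 ± 0.17 and -1.54 ± 0.18, the microtubule depolymerase Kif2c by -1.63 ± 0.11 and -1.56 ± 0.10, and the chromokinesin Kif4 by -1.13 ± 0.11 and -1.19 ± 0.10. Hmmr, a spindle-associated hyaluronan receptor, changed by -0.96 ± 0.18 and -0.86 ± 0.18, and Dlgap5, the spindle protein HURP, by -1.01 ± 0.11 and -0.92 ± 0.11.

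Cytokinesis genes fell in 7 of 7. Kif20a, a kinesin of the central spindle that relocates the passenger complex, was at 159.9, 135.5, 123.5 and 136.6 CPM in scramble, at 50.4 to 55.0 in oAb and at 51.2 to 58.2 in fAb. The treated libraries did not overlap the controls, with changes of -1.39 ± 0.10 and -1.28 ± 0.10. Its exons overlap those of Cdc23 on the other strand over 29.3% of their length, and the labels do not say if counting used strand, so its counts are uncertain. Kif23 and Racgap1, the 2 parts of centralspindlin, changed by -1.55 ± 0.12 and -1.45 ± 0.13, and by -1.34 ± 0.09 and -1.33 ± 0.07. Prc1, which bundles the antiparallel microtubules of the midzone, changed by -1.21 ± 0.12 in oAb, and was at 72.9 to 102.5 CPM in scramble and 39.4 to 44.5 in fAb (edgeR adjusted p = 6.01e-05). The furrow genes had wider errors. Ect2, the exchange factor that activates RhoA, was at 35.6, 26.8, 13.5 and 25.7 CPM in scramble, at 10.0 to 13.2 in oAb and at 12.7 to 14.4 in fAb. Scramble 3 lay inside the fAb range, and the changes were -1.07 ± 0.26 and -0.88 ± 0.24. Anln, the scaffold anillin, changed by -1.02 ± 0.23 and -0.90 ± 0.23, and the kinesin Kif20b by -1.33 ± 0.27 and -1.14 ± 0.29.

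The 2 genes of the mitotic chromosome held the largest share of the members' counts. Mki67, the proliferation marker that coats mitotic chromosomes, was at 877.8, 783.9, 459.6 and 888.9 CPM in scramble, at 278.5 to 318.4 in oAb and at 302.2 to 303.5 in fAb. Scramble 3 was low among the controls but above every treated library, and the changes were -1.35 ± 0.20 and -1.27 ± 0.19. Top2a, the topoisomerase that untangles sister chromatids, was at 510.4, 443.7, 295.9 and 435.5 CPM in scramble and at 179.1 to 222.7 in the treated libraries. Its changes were -1.19 ± 0.15 and -0.99 ± 0.16.

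**Figure D2:**
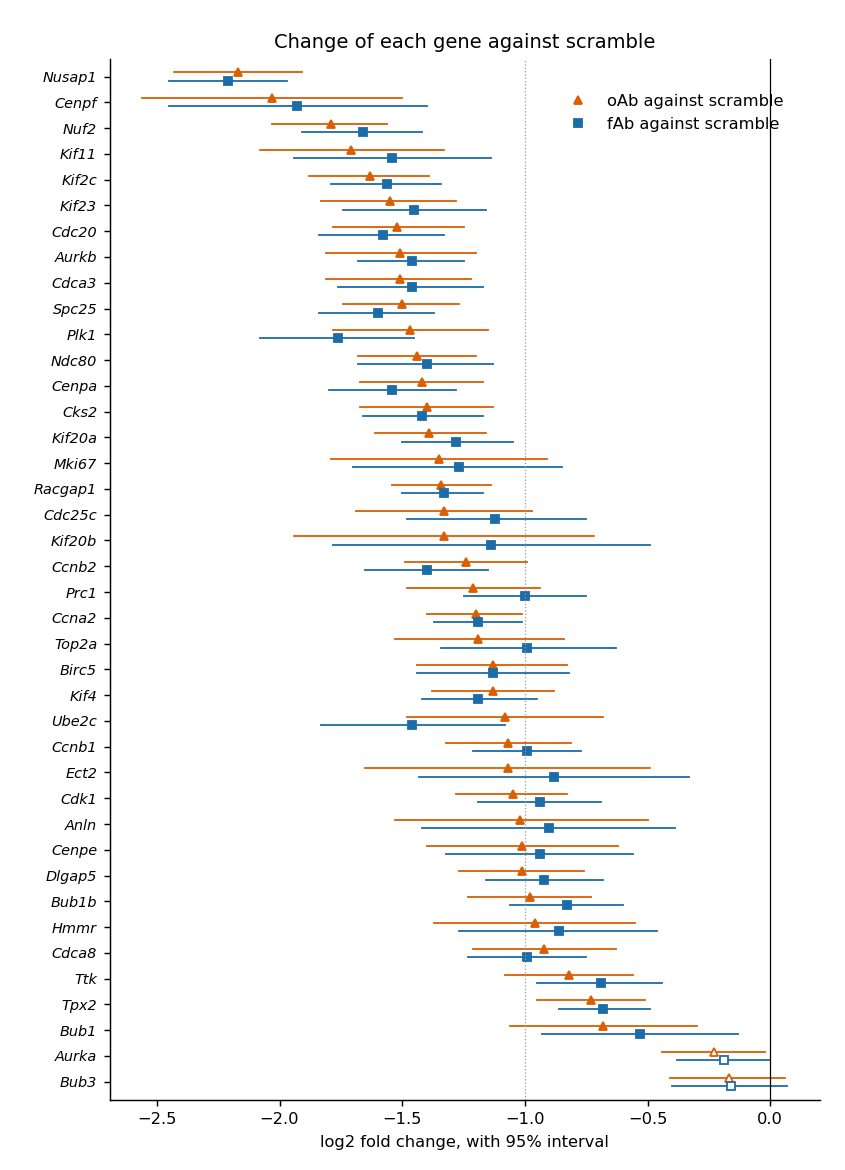
Log2 fold change of each gene with its 95% interval, for oAb (triangles) and fAb (squares) against scramble, ordered by the oAb value, with the dotted line at a 2-fold fall. Filled symbols passed the threshold, and the open symbols of Aurka and Bub3 at the foot did not.

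Within some complexes and families the members fell by unlike amounts, and in others by like ones. The ratios given here are for 6 pairs of genes chosen after their values were seen, so they are a description with no test. The ratio of Aurkb to Aurka was 0.830 to 1.04 among controls, 0.282 to 0.462 in oAb and 0.340 to 0.418 in fAb. That of Cenpf to Cenpe was 0.752 to 1.015 among controls and 0.428 to 0.469 in oAb. The ratios of Bub1b to Bub3 and of Nuf2 to Ndc80 were also lower in every treated library than in every control. The mean log2 ratio of Bub1b to Bub3 differed from the controls by -0.81 in oAb and -0.67 in fAb, and that of Nuf2 to Ndc80 by -0.36 and -0.26. Ccnb2 to Ccnb1 differed by -0.17 in oAb, where the groups overlapped, and by -0.42 in fAb. Kif20a to Kif20b differed by -0.13 and -0.19, and its control ratios of 1.77 to 3.61 overlapped those of both treatments.

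Most promoter windows of these genes held 2 short motifs. Late cell cycle promoters are known for the cell cycle genes homology region (CHR), an element with the core TTTGAA that the MuvB complex binds, and for CCAAT boxes, bound by NF-Y. RefSeq promoter windows on GRCm38.p6, from 250 bases before to 50 after the start site, were given for 34 of the 40 members, in 37 windows, and for 27025 genes in all. TTTGAA, or TTCAAA on the other strand, was in a window of 27 members (79.4%), against 20.2% of all genes. CCAAT, or ATTGG, was in 27 (79.4%), against 41.1%, and both motifs were in 23 (67.6%), against 7.97%. The other cell cycle lists described below held these motifs too. CCAAT was in 38.9% of their genes (anaphase-promoting complex) to 83.3% (10 of 12 other mitotic entry regulators), with 62.8% for S phase. TTTGAA was in 14% (S phase) to 64.3% (other spindle, motor and cytokinesis genes). A high CCAAT share was thus not particular to the members. The variant core TTCGAA was in 3 members (8.82%), against 1.8%. In 1 member window a TTTGAA and a CCAAT match shared a base. Of the E2F-type motifs of G1 and S phase promoters, TTTCCCGC, TTTGGCGC and TTTGGCGG, on either strand, were in 0 members (1.24%, 0.585% and 0.625% of all genes), and TTTCGCGC in 1 (2.94%, against 0.374%). Exact words this rare among all genes cannot show that such sites are absent from 34 members.

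The matches of the CHR core stood near the start site. TTTGAA lay within 50 bases of the start site in 25 of 34 members (73.5%), against 5.84% of all genes. In the 25 bases after the start there were 35.1 matches per 100 member windows, against 1.29 per 100 windows of all genes. CCAAT matches stood mostly upstream, with 37.8 per 100 member windows between 75 and 50 bases before the start. These shares describe the letters in the windows, not binding.

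**Figure D3:**
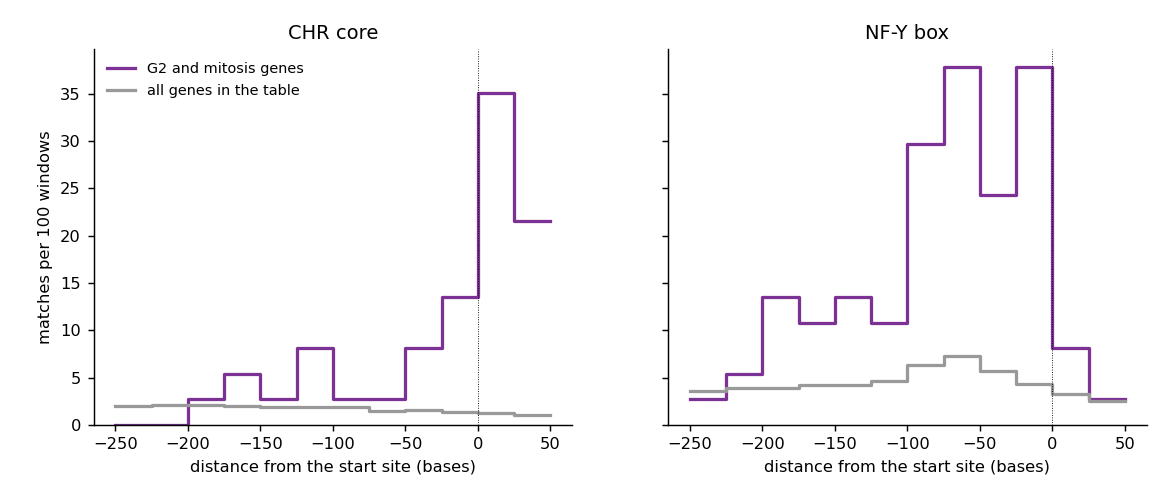
Matches per 100 promoter windows in bins of 25 bases, from 250 bases before to 50 after the start site (x axis), for the core of the CHR on the left and the NF-Y box on the right. The members (purple, 37 windows) peak at 35.1 just after the start for the CHR core, where all genes (grey) are at 1.29.

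The motif did not sort the members by how far they fell. In oAb the median change was -1.24 in the 27 members with TTTGAA and -1.13 in the 7 without, and in fAb -1.27 and -1.13. Nusap1 and Nuf2, among the largest falls, have neither motif in their windows, while Bub3 and Aurka, which missed the threshold, have both. Printed here are the windows of Nusap1, Cenpf and Nuf2, the 3 largest falls in oAb, that of Bub3, which has a further window in the table, and those of Cdc20 and Ccnb2, chosen after their values were seen to show both motifs together. Each reads 5′ to 3′ on the gene's strand, and capitals mark TTTGAA and CCAAT matches on either strand.
Nusap1 chr2:119618048-119618347 (+ strand): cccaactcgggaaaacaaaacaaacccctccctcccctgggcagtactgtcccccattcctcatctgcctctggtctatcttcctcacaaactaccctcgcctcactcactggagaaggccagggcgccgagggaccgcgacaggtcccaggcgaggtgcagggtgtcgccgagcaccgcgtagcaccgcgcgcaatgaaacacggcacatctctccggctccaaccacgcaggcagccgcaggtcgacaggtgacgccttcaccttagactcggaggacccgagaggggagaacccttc
Cenpf chr1:189688037-189688336 (- strand): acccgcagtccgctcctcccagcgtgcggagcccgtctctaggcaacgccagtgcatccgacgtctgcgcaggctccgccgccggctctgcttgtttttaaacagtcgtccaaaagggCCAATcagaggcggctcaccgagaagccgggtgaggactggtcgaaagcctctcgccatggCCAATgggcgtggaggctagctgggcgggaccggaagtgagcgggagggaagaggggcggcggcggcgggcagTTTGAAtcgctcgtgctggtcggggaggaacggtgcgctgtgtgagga
Nuf2 chr1:169531415-169531714 (- strand): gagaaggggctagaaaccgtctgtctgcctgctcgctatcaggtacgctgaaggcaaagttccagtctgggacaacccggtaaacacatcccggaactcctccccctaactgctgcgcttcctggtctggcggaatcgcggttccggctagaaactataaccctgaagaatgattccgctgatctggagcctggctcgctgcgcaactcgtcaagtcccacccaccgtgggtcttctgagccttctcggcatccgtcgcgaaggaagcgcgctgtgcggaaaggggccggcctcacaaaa
Bub3 chr7:131560120-131560419 (+ strand): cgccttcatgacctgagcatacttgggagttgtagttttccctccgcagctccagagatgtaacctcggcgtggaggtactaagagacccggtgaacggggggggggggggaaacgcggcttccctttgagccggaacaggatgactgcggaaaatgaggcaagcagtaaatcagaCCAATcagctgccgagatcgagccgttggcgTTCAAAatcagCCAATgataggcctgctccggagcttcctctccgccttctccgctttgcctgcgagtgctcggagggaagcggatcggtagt
Cdc20 chr4:118437294-118437593 (- strand): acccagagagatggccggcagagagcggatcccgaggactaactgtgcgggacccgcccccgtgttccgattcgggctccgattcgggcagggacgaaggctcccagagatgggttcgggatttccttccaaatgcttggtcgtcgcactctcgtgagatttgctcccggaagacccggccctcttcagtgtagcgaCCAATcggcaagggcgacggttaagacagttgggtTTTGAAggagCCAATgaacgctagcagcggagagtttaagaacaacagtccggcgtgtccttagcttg
Ccnb2 chr9:70421505-70421804 (- strand): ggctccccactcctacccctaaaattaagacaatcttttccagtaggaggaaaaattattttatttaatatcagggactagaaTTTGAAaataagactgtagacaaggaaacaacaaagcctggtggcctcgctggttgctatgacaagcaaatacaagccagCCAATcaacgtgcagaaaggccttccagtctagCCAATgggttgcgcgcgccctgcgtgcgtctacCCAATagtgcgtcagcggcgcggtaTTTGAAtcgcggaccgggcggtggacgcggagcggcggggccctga
Positions here are those of the centre of each match. In Cenpf the CHR core is centred 4 bases after the start site and follows 2 CCAAT boxes. In Cdc20 it is centred 16 bases before the start, between 2 CCAAT boxes. In Ccnb2 a core 6 bases after the start follows 3 CCAAT boxes, and a further core lies 165 bases before the start. The core of Bub3 is on the other strand, 41 bases before the start.

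Between the 2 preparations no member passed the test. In fAb against oAb, 0 members and 0.00% of 10878 genes had an edgeR adjusted p under 0.05. At an unadjusted p under 0.05 there were 6 members, Ube2c, Plk1, Ccnb2, Top2a, Prc1 and Bub1b, or 15% of the 40, against 12.8% of all genes. DESeq2 called 16 genes, 0 of them members, and limma voom called 0 genes. The member differences ran from -0.41 in Ube2c to 0.18 in Cdc25c, with a median of 0.04 and adjusted p from 0.375 to 0.993. In 39 of 40 members the 95% interval lay within a 1.5-fold change in either direction.

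The gene outside it was Ube2c, at 60.5, 63.9, 47.9 and 48.2 CPM in oAb libraries 1 to 4 and at 40.6, 38.9, 44.8 and 42.1 in fAb. All fAb libraries were below all oAb libraries, but oAb 1 and 2, of the Timm23 set, were above oAb 3 and 4, which share their set with fAb. The difference of -0.41 ± 0.10 had a 95% interval from -0.62 to -0.19. Plk1 had the same order, with oAb 1 and 2 at 34.7 and 33.7 and oAb 3 and 4 at 28.5 and 28.6 CPM, and differed by -0.33 ± 0.09. Prc1 (0.17 ± 0.07) and Bub1b (0.11 ± 0.05) were the other members whose groups did not overlap, so 4 of 40 (10%) did not, against 6.31% of all genes. Within the Gm10273 set (2 oAb and 4 fAb libraries) Ube2c differed by -0.20 (edgeR adjusted p = 0.442) and Plk1 by -0.18 (adjusted p = 0.48).

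**Figure D4:**
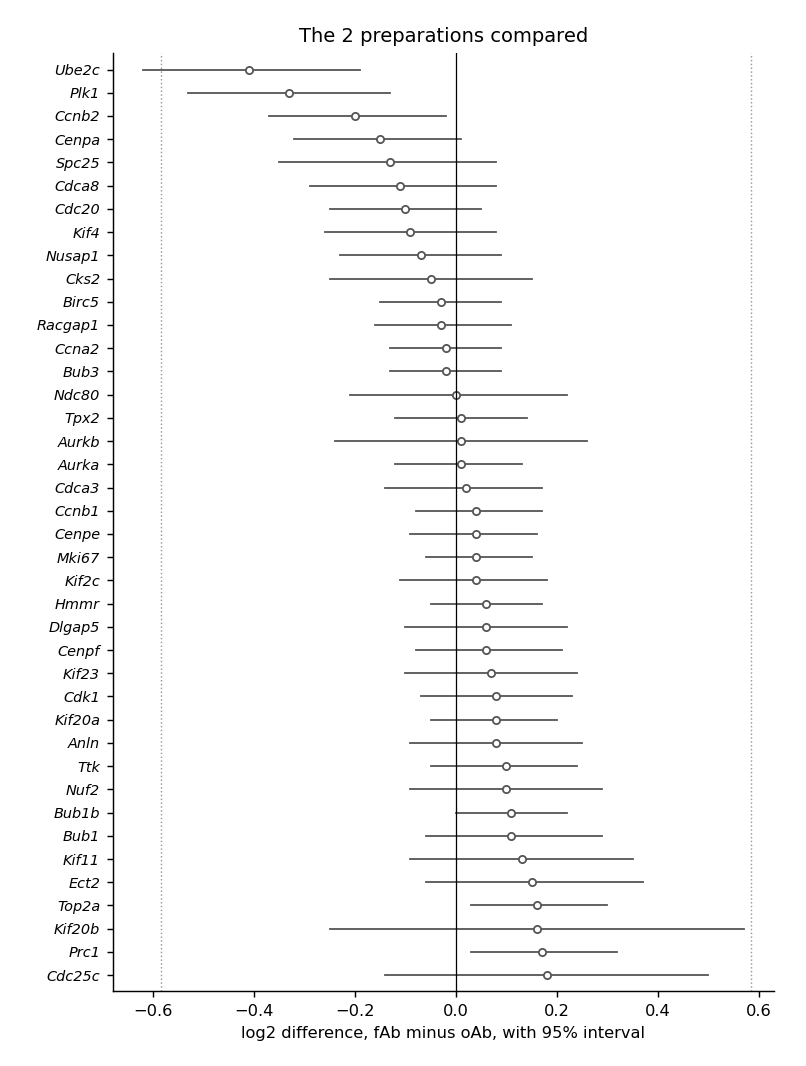
Log2 difference between fAb and oAb for each of the 40 genes with its 95% interval, where values below 0 are lower in fAb and the dotted lines mark a 1.5-fold change. The interval of Ube2c alone passes a dotted line, and no gene passed the adjusted threshold.

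The other genes of the cell cycle were taken from lists of known roles. Their counts stand beside the shares of all genes tested, 27.0% called lower and 25.2% higher in oAb, and 28.8% and 27.6% in fAb. Spindle, motor and cytokinesis genes outside the 40 also fell, with 28 of 34 lower and 0 higher in both comparisons and medians of -1.23 and -1.03. Psrc1, a microtubule-binding protein, changed by -2.49 ± 0.15 and -2.51 ± 0.15, and Kif22, a chromosome-arm kinesin, by -1.77 ± 0.12 and -1.74 ± 0.12. Of 34 other kinetochore and checkpoint genes, 28 were lower and 2 higher in oAb and 24 and 2 in fAb. Mad2l1, whose product MAD2 blocks CDC20, fell from 64.2 ± 8.24 to 28.3 ± 0.677 and 31.4 ± 3.75 CPM (SD, n = 4). Zwint, a kinetochore linker, rose from 53.8 ± 4.56 to 107.7 ± 3.50 and 118.8 ± 3.34 CPM, by 1.00 ± 0.09 (edgeR adjusted p = 1.39e-05) and 1.18 ± 0.09 (3.96e-06), and Mis12 was the other gene that rose. The cohesin and condensin list had 10 of 17 lower in oAb and 9 in fAb, with Wapl, the cohesin release factor, the only riser. The condensin gene Ncapd2 fell from 197.2 ± 11.6 to 44.4 ± 2.40 and 46.7 ± 0.702 CPM.

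Upstream, the regulators of mitotic entry had 9 of 16 lower and 1 higher in both comparisons. Cdc25b, a CDK-activating phosphatase of G2, fell by 1.56 ± 0.09 and 1.59 ± 0.10 on the log2 scale, while Cdc25a, its G1 and S relative, was the gene that rose. Of 19 genes of the anaphase-promoting complex and its regulators, 5 were lower and 0 higher in both, with medians of -0.12 and -0.15. That share is near the 27.0% and 28.8% of all genes called lower, and only Anapc2 and Anapc11 of the 5 encode subunits, the others being Fzr1, Fbxo5 and Espl1. Of the 24 transcription regulators, 8 were lower and 1 higher in oAb and 8 and 3 in fAb, with medians of -0.23 and -0.19. The share called lower was not far above that of all genes, so the genes named next do not stand for the list. Foxm1, the factor that drives late cell cycle genes, fell from 70.3 ± 5.98 to 27.5 ± 0.837 and 28.1 ± 2.73 CPM, by -1.35 ± 0.09 (edgeR adjusted p = 2.43e-06) and -1.29 ± 0.10 (5.85e-06). Mybl2, which binds MuvB earlier in the cycle, was at -0.31 ± 0.10 (adjusted p = 0.0275) and -0.42 ± 0.10 (adjusted p = 0.00485). Tfdp2, an E2F partner, changed by -2.56 ± 0.19 and -2.60 ± 0.20, and the pocket protein gene Rbl2 by -2.21 ± 0.19 and -2.09 ± 0.24.

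S phase genes moved in both directions, with 29 of 56 lower and 4 higher in oAb and 32 and 6 in fAb. Their medians of -0.40 and -0.39 were nearer to those of all genes than the members' were. Tk1, a thymidine kinase, changed by -2.04 ± 0.15 and -1.95 ± 0.14, Pcna, the replication clamp, by -0.47 ± 0.15 and -0.43 ± 0.10, and Mcm2, a helicase subunit, by -0.28 ± 0.13 (edgeR adjusted p = 0.11) and -0.35 ± 0.09 (adjusted p = 0.00692). Cdc6 and Ccne1, which act in G1 when origins are licensed and S phase begins, were among the risers. Of 12 tested genes among the G1 cyclins and CDK inhibitors, 5 rose in both comparisons, and 3 fell in oAb and 2 in fAb. Ccnd1, the growth-factor-induced cyclin D1, rose from 204.4 ± 18.5 to 426.2 ± 6.47 and 400.8 ± 32.4 CPM, and Cdkn1a, the p21 inhibitor, by 0.46 ± 0.10 (adjusted p = 0.00379) and 0.32 ± 0.10 (adjusted p = 0.0205). Of the 13 mitochondrial mRNAs, 7 were lower in oAb and 10 in fAb, and 0 were higher. No gene of these lists was called in fAb against oAb.

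Among the controls the members were not alike in scramble library 3. It was the lowest control for 22 of the 40 genes and the highest for 14. Long genes were low there and short genes high: the log2 difference from the mean of the other 3 controls had a Spearman rho of -0.60 with exon length over the 40 members, and also -0.60 over 11027 tested genes, as descriptions within 1 library. Kif20b stood at -1.14, Cenpf and Ect2 at -1.12 and Mki67 at -0.89, while Ube2c and Birc5 stood at 0.53 and Cdca3 at 0.47. The log2 fold changes themselves had a rho with exon length of 0.04 in oAb and 0.19 in fAb over the 40 members. Without scramble 3 the member medians were -1.28 and -1.27, with 39 members lower in oAb, where Aurka joined, and 38 in fAb. The largest shifts were in Kif20b, by -0.21 in both, and in Ube2c, by 0.15 and 0.16.

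**Figure D5:**
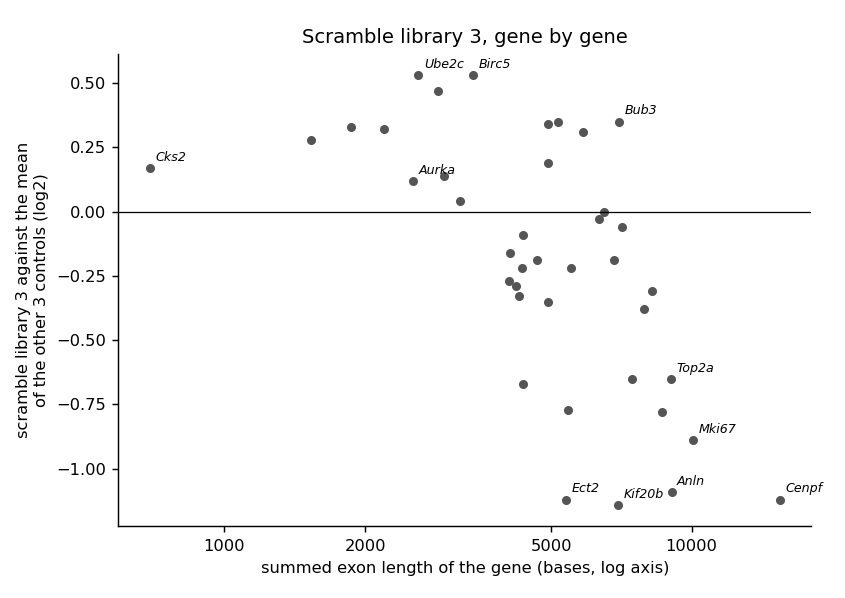
Each point is 1 of the 40 genes, with its summed exon length on a log axis and the log2 difference of scramble library 3 from the mean of the other 3 controls. Points run from 0.53 for the shorter genes Ube2c and Birc5 to -1.14 for Kif20b, with Cenpf, the longest, at -1.12.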

How the data were processed

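The mRNA of 12 samples was sequenced with a stranded kit, per the labels' protocols. The submitters' processing notes name the build mm10. For the aligner, the counter and the strand setting, the names are not given in the sources used. The authors deposited 2 tables, each with the controls and 1 treatment, of whole-number gene counts, per the file headers. The control counts were identical in both. TPM, made by the authors and deposited beside the counts, served for levels between genes. The authors' deposited RPKM, the CPM-type signal columns, the signed fold change score and their log2 fold changes and p-values were not used.

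Sample titles gave the groups. The counts went into edgeR 4.0.16 (R 4.3.3) on the 8 libraries of each comparison, with filterByExpr (minimum count 10), TMM scaling, a robust two-sided quasi-likelihood F test and Benjamini-Hochberg adjustment over all genes tested, at 0.05. Normalised CPM are counts scaled to the TMM-adjusted library size. SE values derive from the F statistic, and 95% intervals use its degrees of freedom. The test was tested on simulated counts in which far fewer genes were changed than were called here against scramble. Against scramble it recovered 24.6% (oAb) and 28.6% (fAb) of 1.5-fold changes, and 71.4% and 74.2% of 2-fold changes. Of its calls 4.41% and 4.2% were false. In fAb against oAb it recovered 71.2% of 1.5-fold changes, with 5.43% of calls false. The adjusted threshold depends on how many genes change, so these shares need not hold for the comparisons with scramble. Small changes against scramble could still be missed, at a rate not measured here.

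The members, role groups, lists and rules were chosen with earlier results of these data known. In full, by rule, come the member of each role highest in the controls, the 3 largest and 2 smallest changes of each comparison and members not called. From each list come fixed genes and those with the 3 smallest adjusted p. To save room, a few of the latter are left out. Mis12, Wapl, Cdc25a, Cdc6, Ccne1, Anapc2 and Anapc11 were named after their values were seen.

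Of the identifiers, 41297 are in GENCODE M21, and 38 members have the same coordinates there. Exons of 1 member (Top2a, with Gm23451) overlap another gene on the same strand and those of 10 on the other strand. At least 5% of the 50-base words of 4 members, Cks2, Ccnb1, Cdc20 and Plk1, lie in other genes. Every pair of libraries in a group differed beyond counting noise (chi-square divided by its degrees of freedom 2.91 to 136), so all counted as separate. Replicate numbers were checked for pairing through the correlation of deviations from the group means. It was 0.218, 0.199, 0.286 and 0.146 for fAb and scramble of the same number, so those were also fitted as pairs, although each correlated more with another number (0.162 to 0.539). Same-numbered oAb and scramble (-0.284 to 0.069) and fAb and oAb (-0.287 to 0.332) did not deviate together, so a block by number is there only an alternative setting.

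Alternatives were other scalings and filters, DESeq2 1.42.0, limma voom (limma 3.58.1), a replicate block, all 12 libraries in 1 fit, a threshold of 0.01, the library sets and leaving out each library.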

Additional observations from a re-analysis of the deposited data

Results flagged for a closer look

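For each of the 40 genes and their sum the 4 libraries of each group were searched for a value far from the other 3, in 123 groups of 4. Chance alone flags about 1 in 20 such groups, and 2 were found, both in scramble library 3. Cdca3 was at 96.6 CPM there and at 68.9 to 71.7 in the other controls. Birc5 was at 106.9 CPM there and at 73.1 to 76.4 in the other controls.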

How the results depend on the processing

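The count of members called lower was 34 to 40 in oAb against scramble and 36 to 40 in fAb against scramble over the settings tried, and 0 members were called higher in any. With a replicate block it was 38 in both, the same as without. On leaving out 1 library at a time it was 38 to 39 in oAb and 37 to 38 in fAb, while the count of all genes called ran from 4962 to 7174 in oAb, from 5517 to 7598 in fAb and stayed at 0 in fAb against oAb. Counts of all genes moved with the library sets: in oAb from 5761 to 3792 within the Timm23 set and 7317 within the Gm10273 set, and in fAb from 6235 to 3844 with the set as a term. In fAb against oAb DESeq2 called 16 genes against 0. Of 800 member values in oAb, 791 kept their side of the threshold. Aurka passed it with upper quartile scaling (-0.40, adjusted p = 0.00556), all 12 libraries (-0.23, 0.0213), the set as a term (-0.26, 0.0333) and without scramble 3 (-0.20, 0.0426), and Bub3 with upper quartile scaling. Bub1 (-0.51, 0.125), Kif20b (-0.94, 0.0845), Ect2 (-0.92, 0.0861) and Anln (-0.79, 0.119) lost their calls within the Timm23 set. Of 760 in fAb, 748 kept their side. Aurka passed it with upper quartile scaling (-0.38, 0.00454), all 12 libraries (-0.23, 0.0226), without scramble 2 (-0.25, 0.0425) and within the Gm10273 set (-0.23, 0.0368). Apart from Bub1 without single libraries, Bub1 and Ect2 were lost at a threshold of 0.01. No member changed sign against scramble. In fAb against oAb 13 of 40 members had either sign over 20 settings, and none was called. The cause of these changes was not tested. Depth did not leave any member untested, and the 4 libraries of a group limit the precision of each value.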
